A study of Homo sapiens with 12 samples.

Results

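Glycolysis and its hypoxia-induced companions were followed through 42 genes, 25 of glucose transport and glycolysis and 17 of the HIF axis and of HIF-induced genes outside glycolysis. They were taken by name from the deposited table, which listed 20003 named genes. All 42 were found, and all passed the expression filter that 12623 genes passed in all. RNA-seq was done on PC9, HCC827 and H1975, 3 established human cell lines of non-small-cell lung cancer, which had been exposed stepwise to osimertinib, an inhibitor of the EGFR kinase. The sample titles add OR to each line name, as PC9OR, HCC827OR and H1975OR, without saying what it stands for. In each line, 2 libraries of cells with the genotype label ZNF263 overexpressed were set against 2 libraries labelled control. ZNF263 is a zinc finger transcription factor. The series title names its effect on the response to EGFR-targeted therapy as the subject. The vector, its promoter, the number of clones, the oxygen level and any drug at harvest are not stated by the labels.

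Glycolysis breaks glucose down to pyruvate, and cells that send much of that pyruvate to lactate export it with a proton through monocarboxylate transporters. The hypoxia-inducible factors HIF1A and EPAS1 are alpha subunits that prolyl hydroxylases mark for destruction while oxygen is present. When oxygen falls they persist, pair with ARNT and bind short DNA elements near their targets. Those targets include most steps of glycolysis, angiogenic factors, carbonic anhydrases that handle acid, and the hydroxylases themselves. Lung tumours often carry high levels of these transcripts, and growth factor signalling from EGFR also raises several of them.

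ZNF263 averaged 39.1 FPKM in the PC9 libraries labelled ZNF263 and 9.33 in control, 19.7 and 12.5 in HCC827, and 39.5 and 9.91 in H1975 (n = 2 libraries per group), so the contrast was smallest in HCC827. FPKM is the number of fragments per kilobase of gene, scaled to library size. For a gene of median length, 1 FPKM stood for 67.2 to 83.8 reads in PC9 and HCC827 and for 122.9 to 133 reads in H1975. Read numbers were taken as the smallest that fit the values of a gene, so the true numbers may be a whole multiple. On these numbers, the members rested on at least 50 reads in every library except 5 genes in HCC827 and 2 in PC9. Those genes are named with their values. Of 10 lung epithelial markers, 5 were higher with ZNF263 in PC9, 3 were higher and 2 lower in HCC827, and 1 was higher and 6 lower in H1975. Their summed level was 1876 to 1889 FPKM with ZNF263 and 3971 to 3982 FPKM in control in H1975, against 3960 to 4194 and 2786 to 2810 in PC9 and 3380 to 3575 and 3704 to 4166 in HCC827. The 9 fibroblast markers summed to 175.5 to 179.9 FPKM with ZNF263 and 30.89 to 34.25 in control in H1975, where PDGFRA and THY1 were listed at 0 with ZNF263, and to no more than 23.7 FPKM in any library of the other lines. Of the 5 fibroblast markers that passed the expression filter, 3 were higher and 2 lower in H1975, 1 was higher in HCC827, and limma called 0 in PC9 (also 0 at an unadjusted p under 0.05). Of all genes tested, 64.2% passed the test in H1975, 19.5% in HCC827 and 11.3% in PC9. Fewer cells of a type and less RNA per cell cannot be told apart in such bulk libraries, and the part of these shifts in the results below was not tested.

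The 42 genes behaved differently in each line. In HCC827, 23 were lower with ZNF263, 2 were higher and 17 did not pass. In H1975, 17 were lower, 12 higher and 13 did not pass. In PC9, 6 were lower, 4 higher and 32 did not pass. The call is an adjusted p under 0.05 in limma, on log2(FPKM + 1), with the Benjamini-Hochberg adjustment over all genes, and a log2 change is ZNF263 minus control on that scale. Where a value is given less its neighbours, the median change of the 20 genes on each side along the chromosome was subtracted from it.

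Against the background, the falls in HCC827 stood out by their number. Of all genes tested, 6.44% were called lower and 13% higher in HCC827 (19.5% in all), whereas 54.8% of the members were lower. In H1975, 32.1% of all genes were lower and 32.1% higher, against 40.5% and 28.6% of the members. In PC9, 4.12% of all genes were lower and 7.21% higher (11.3% in all), against 14.3% and 9.52% of the members. The median log2 change of the members was -0.27 in HCC827, where that of all genes was 0.045. It was -0.017 in H1975 and -0.001 in PC9, where the medians over all genes were 0.003 and 0. With values rescaled within HCC827, the share of higher calls over all genes was 45% (median-of-ratios) or 50.5% (quantile) in place of 66.9%, and 24 members were lower under each.

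**Figure D1:**
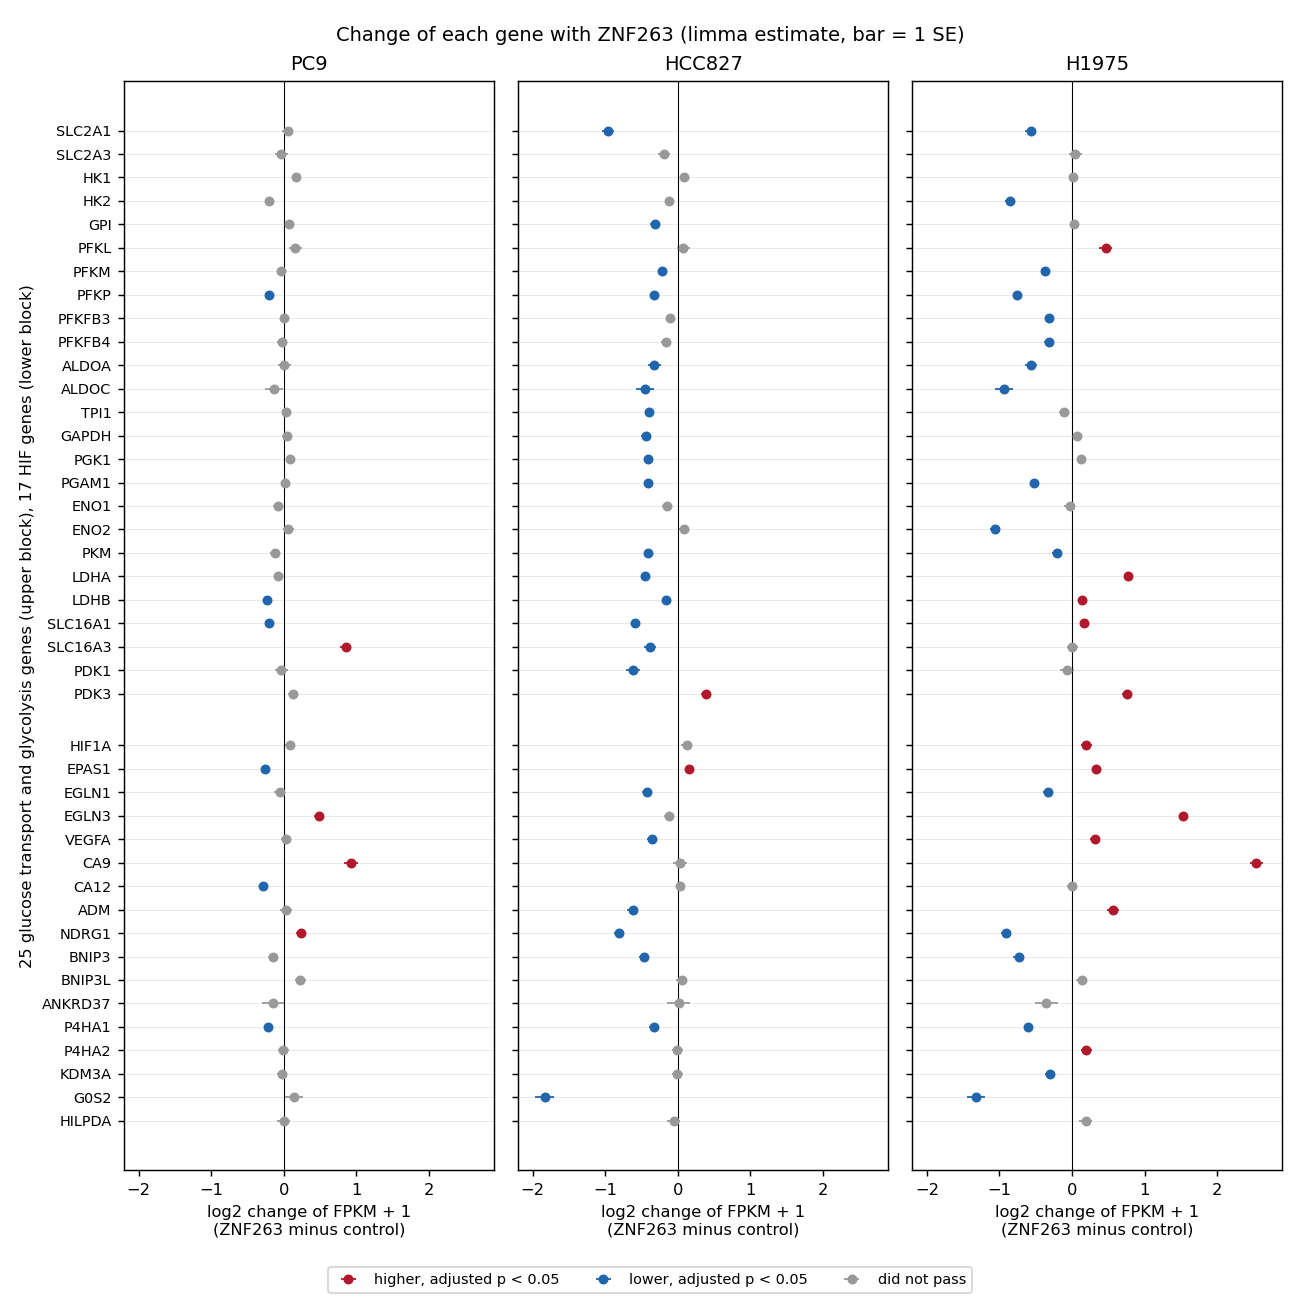
Log2 change of FPKM + 1 (x axis, ZNF263 minus control) for each of the 42 genes (rows), with 1 panel per line and bars of 1 SE from limma, over 2 libraries per group. In HCC827, 16 of the 25 upper genes lie to the left past the threshold, and in H1975 the points spread to both sides, from -1.32 for G0S2 to 2.54 for CA9.

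The calls were also counted within the 2 groups of genes. Of the 25 glycolysis genes, 16 fell, 1 rose and 8 did not pass in HCC827, with a median of -0.32. In H1975, 11 fell, 5 rose and 9 did not pass (median -0.066), and in PC9 3 fell, 1 rose and 21 did not pass (median -0.003). Of the 17 HIF genes, 7 fell, 1 rose and 9 did not pass in HCC827 (median -0.056), 6 fell, 7 rose and 4 did not pass in H1975 (median 0.13), and 3 fell, 3 rose and 11 did not pass in PC9 (median 0.001).

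**Figure D2:**
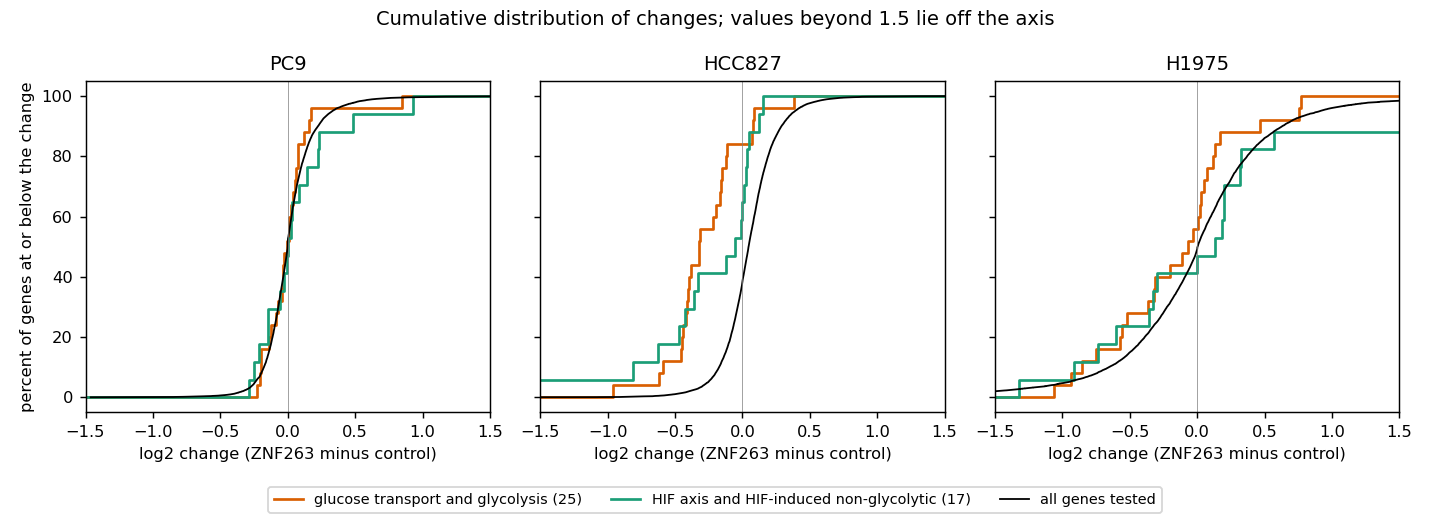
Percent of genes at or below a given log2 change (x axis, ZNF263 minus control) in each line, for the 25 glycolysis genes, the 17 HIF genes and all genes tested. In HCC827 the glycolysis curve lies left of that of all genes, with medians of -0.32 and 0.045, and in PC9 the curves run close together around 0.

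Promoters of 4 members are shown, picked for their changes with ZNF263 in HCC827 and H1975. LDHA fell in HCC827 and rose in H1975, CA9 had the highest rise, BNIP3 fell in both of those lines, and G0S2 had the lowest change in each of them. Each run covers 250 bases before and 50 bases from the RefSeq start on (GRCh38.p14), 5′ to 3′ on the strand of the gene. Capitals mark the HIF element cores ACGTG and GCGTG on either strand, and neighbouring cores may overlap.
LDHA: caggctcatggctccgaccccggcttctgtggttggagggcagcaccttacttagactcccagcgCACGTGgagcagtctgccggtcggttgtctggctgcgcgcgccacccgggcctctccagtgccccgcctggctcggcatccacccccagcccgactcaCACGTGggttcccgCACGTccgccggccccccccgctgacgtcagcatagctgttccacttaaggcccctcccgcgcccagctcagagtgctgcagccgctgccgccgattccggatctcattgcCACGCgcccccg
CA9: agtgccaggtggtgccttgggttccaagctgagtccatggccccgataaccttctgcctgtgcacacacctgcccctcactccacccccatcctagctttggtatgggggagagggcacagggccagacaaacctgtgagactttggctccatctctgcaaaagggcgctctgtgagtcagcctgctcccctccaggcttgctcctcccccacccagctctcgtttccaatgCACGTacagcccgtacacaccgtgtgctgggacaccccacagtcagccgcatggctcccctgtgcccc
BNIP3: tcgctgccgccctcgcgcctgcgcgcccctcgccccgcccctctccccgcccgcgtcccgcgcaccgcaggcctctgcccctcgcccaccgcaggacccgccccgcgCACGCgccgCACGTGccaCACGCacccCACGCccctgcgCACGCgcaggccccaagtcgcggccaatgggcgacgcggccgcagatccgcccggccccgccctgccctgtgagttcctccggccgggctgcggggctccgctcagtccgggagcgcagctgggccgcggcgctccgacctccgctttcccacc
G0S2: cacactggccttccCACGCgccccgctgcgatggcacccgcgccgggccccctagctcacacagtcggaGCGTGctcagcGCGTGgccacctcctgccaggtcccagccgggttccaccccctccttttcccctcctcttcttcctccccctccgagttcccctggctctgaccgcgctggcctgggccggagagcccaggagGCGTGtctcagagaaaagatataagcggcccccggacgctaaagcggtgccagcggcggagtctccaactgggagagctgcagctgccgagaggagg
The LDHA window is chr11:18394313-18394612 on the plus strand, the CA9 window chr9:35673678-35673977 on the plus strand, the BNIP3 window chr10:131981874-131982173 on the minus strand and the G0S2 window chr1:209675162-209675461 on the plus strand. LDHA held 6 cores, which include both strands of CACGTG at 2 places, CA9 held 1, BNIP3 held 6 and G0S2 held 4.

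RefSeq windows were matched for 36 of the 42 members, and 27 of them (75.0%) held ACGTG or GCGTG, against 48.4% of 27305 promoters of the same length. By direction of change, of members lower in HCC827, 14 of 20 matched windows held a core, against 11 of 14 of those that did not pass there. In H1975 a core was found in 13 of 16 windows of members that were lower and in 8 of 10 of those that were higher. CACGTG, which contains ACGTG on both strands, was found in 5 of 36 member windows (13.9%) and in 7.43% of all promoters. GGAGGAGG, searched on both strands, was found in 5 of 36 (13.9%) and 10.4%. The members were chosen as glycolysis and HIF genes, so a higher share of HIF cores may follow from that choice. The promoters they are set against were not matched for base content. A match is a description of letters in this window and says nothing of binding.

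Of the 2 glucose transporter transcripts, SLC2A1 was lower with ZNF263 in HCC827 and H1975, and SLC2A3 did not pass in any line. SLC2A1, which carries glucose into most tumour cells (chromosome 1, 42925375 to 42959176, GRCh38, minus strand), stood at 48.1 and 59.5 FPKM in the HCC827 ZNF263 libraries, against 108 and 102 FPKM in control. In H1975 it was 66.1 and 63.9 FPKM with ZNF263, against 98.0 and 96.0 FPKM in control. The groups did not overlap in either line, nor in PC9, where SLC2A1 was not called, so with 2 libraries each this carries little weight. The share of all genes without overlap was not counted. SLC2A1 fell by 0.96 ± 0.077 (SE) on the log2 scale in HCC827 (adjusted p = 7.51e-06) and fell by 0.57 ± 0.077 in H1975 (2.77e-05). In PC9 the values were 50.3 and 49.2 FPKM with ZNF263 and 48.4 and 47.4 in control (log2 change 0.054, adjusted p = 0.747). SLC2A3, a high-affinity transporter, had changes from -0.19 to 0.049. In HCC827 it rested on 28 to 47 reads or a whole multiple of these.

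The hexokinases trap glucose in the cell. Of the members HK1 and HK2, only the inducible form HK2 (chromosome 2, 74833981 to 74893359, plus strand) was called, and only in H1975. It stood at 28.1 and 29.5 FPKM in the H1975 ZNF263 libraries, against 51.8 and 53.8 FPKM in control. That is a fall by 0.85 ± 0.064 (adjusted p = 1.11e-07). HK1, the constitutive form, was 59.0 and 59.9 FPKM with ZNF263 and 59.5 and 57.9 in control in the same line (log2 change 0.018, adjusted p = 0.831). HK2 therefore made up 32.3% and 33.0% of the summed HK1 and HK2 level in the H1975 ZNF263 libraries, and 46.6% and 48.2% in control. GPI, the hexose phosphate isomerase, fell by 0.32 ± 0.061 in HCC827 (adjusted p = 0.00361) and stood at 0.077 in PC9 and 0.031 in H1975. That call did not pass on the 4 HCC827 libraries alone (0.0977).

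Phosphofructokinase, the committed step, shifted in its isoforms. PFKP, the platelet form (chromosome 10, 3066333 to 3137712, plus strand), was lower with ZNF263 in each line. Its levels were 79.6 and 79.1 FPKM with ZNF263 and 136 and 133 FPKM in control in H1975 (log2 change -0.75 ± 0.051, adjusted p = 4.76e-08). In HCC827 they were 39.1 and 39.9 FPKM with ZNF263, against 51.7 and 47.7 FPKM in control (-0.32, 0.00106). In PC9 they were 106 and 101 FPKM with ZNF263, against 119.9 and 120.0 in control (-0.21, 0.0192). PFKL, the liver form, rose in H1975 to 51.2 and 51.3 FPKM, against 37.4 and 36.3 FPKM in control (0.47 ± 0.090, 0.000527), and by 0.26 less its neighbours. As a share of the summed level of the 3 isoforms, PFKP was 52.2% and 52.3% in the H1975 ZNF263 libraries and 67.5% and 67.7% in control. The corresponding means were 47.7% and 52.6% in HCC827 and 73.3% and 76.8% in PC9. PFKM, the muscle form, fell by 0.22 in HCC827 and fell by 0.37 in H1975, and the H1975 value was -0.056 less its neighbours (adjusted p = 0.406). PFKFB3 and PFKFB4 make and degrade fructose 2,6-bisphosphate, the activator of this step, and both fell in H1975, by 0.32 each. They did not pass in the other lines. The PFKM call in HCC827 did not pass without ZNF263 replicate 2 (0.1001) or on 4 libraries alone (0.160). The PFKP call in PC9 did not pass on the 4 PC9 libraries alone (0.0727) or without PC9 control replicate 1, control replicate 2 or ZNF263 replicate 2 (adjusted p from 0.106 to 0.1285), and that in HCC827 did not pass on 4 libraries (0.0582).

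Aldolase and triose phosphate isomerase split the hexose. TPI1 (chromosome 12, 6867119 to 6870948, plus strand) stood at 422 and 433 FPKM in the HCC827 ZNF263 libraries, against 600.0 and 530.2 FPKM in control. It fell there by 0.40 ± 0.059 (adjusted p = 0.000695; 0.0612 on the 4 HCC827 libraries alone), and its changes were 0.027 in PC9 and -0.12 (0.104) in H1975. ALDOC, the brain aldolase, fell to 28.2 and 25.3 FPKM in H1975, against 53.7 and 50.4 FPKM in control (-0.94 ± 0.13, 2.69e-05). In HCC827 it was 8.004 and 8.18 FPKM with ZNF263, against 12.97 and 10.1 FPKM in control (-0.45, 0.0251). The HCC827 call of ALDOC rested on control replicate 1, without which it was -0.28 (0.191), and it also did not pass without either ZNF263 library (0.125 and 0.0835) or on the 4 libraries alone (0.0924). ALDOA, the main aldolase of most tissues, is uncertain. It was 424 and 397 FPKM with ZNF263 and 411 and 405 in control in PC9, but 2.06 and 2.45 against 3.23 and 2.92 FPKM in HCC827 and 9.64 and 8.24 against 14.6 and 12.7 FPKM in H1975, and 42.3% of its exonic bases are shared with the overlapping same-strand gene AC093512.2. Its falls of 0.32 in HCC827 and 0.56 in H1975 are given as listed, and that in HCC827 did not pass without a filter on low values (0.0515), without control replicate 1 (0.103) or ZNF263 replicate 1 (0.172), or on 4 libraries alone (0.117). Without ALDOA 22 members were lower in HCC827 and 16 in H1975.

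In lower glycolysis, 4 of 6 genes fell in HCC827, and ENO1 and ENO2 did not pass. GAPDH (chromosome 12, 6533927 to 6538374, plus strand) stood at 2878 and 3033 FPKM in the HCC827 ZNF263 libraries, against 4218 and 3807 FPKM in control. PGK1, phosphoglycerate kinase, was at 104 and 111 FPKM with ZNF263, against 151 and 137 FPKM in control. PGAM1, phosphoglycerate mutase, was at 82.3 and 82.9 FPKM with ZNF263, against 111 and 109 FPKM in control. PKM, the pyruvate kinase, was at 399 and 437 FPKM with ZNF263, against 595 and 517 FPKM in control. The log2 changes of the 4 lay close together, at -0.44, -0.42, -0.41 and -0.41 (adjusted p from 0.000122 for PGAM1 to 0.00136 for PKM). Of these, PGK1 and PGAM1 also passed on the 4 HCC827 libraries alone, whereas GAPDH (0.0991) and PKM (0.0738) did not, and GAPDH was at -0.16 with quantile normalization. ENO2, the neuronal enolase, was 13.5 and 14.2 FPKM with ZNF263 and 13.4 and 12.7 FPKM in control in HCC827 (0.078, 0.478). ENO1, the main enolase, was called in no line, with changes of -0.15 in HCC827, -0.085 in PC9 and -0.033 in H1975.

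In H1975 the same steps diverged. PGAM1 fell to 230.3 and 222 FPKM, against 332 and 318 FPKM in control (-0.52 ± 0.048, adjusted p = 8.15e-07), or by 0.24 less its neighbours. ENO2 (chromosome 12, 6913745 to 6923698, plus strand), fell to 15.1 and 16.3 FPKM, against 34.6 and 33.0 FPKM in control (-1.06 ± 0.070, 3.58e-08). It was the lowest change of any glycolysis member in that line. GAPDH was 2494 and 2445 FPKM with ZNF263 and 2371 and 2331 FPKM in control (0.071, 0.343), and PGK1 was at 0.12 (0.074). Both turned with another treatment of the values, GAPDH to -0.13 (0.00396) with quantile normalization and PGK1 to -0.22 (0.00356) less its neighbours. PKM stood at -0.20 (0.0182), but at 0.0003 (0.997) less its neighbours, and did not pass without any 1 of the 4 H1975 libraries (adjusted p from 0.06003 to 0.0871). In PC9 limma called 0 of the 6 genes, with 0 at an unadjusted p under 0.05, and the changes lay between -0.12 and 0.080.

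Genes of lactate production and export were called in different directions in different lines. LDHA, which turns pyruvate into lactate (chromosome 11, 18394388 to 18408425, plus strand), stood at 1575 and 1558 FPKM in the H1975 ZNF263 libraries, against 918 and 917 FPKM in control. In HCC827 it was 379 and 428 FPKM with ZNF263, against 563 and 545 FPKM in control. In PC9 it was 843 and 858 FPKM with ZNF263, against 891 and 899.6 FPKM in control. It thus rose in H1975 by 0.77 ± 0.058 (adjusted p = 1.11e-07), fell in HCC827 by 0.46 ± 0.058 (0.00022), and did not pass in PC9 (-0.075, 0.48). The genes around LDHA had a median change of 0.57 in H1975, and LDHA less that median stood at 0.20 (0.0105). LDHB, which favours the reverse reaction, fell by 0.16 in HCC827 (0.0413) and fell by 0.23 in PC9 (0.00987), and rose by 0.14 in H1975 (0.029). These LDHB calls missed the threshold without HCC827 control replicate 1 or either ZNF263 library, without PC9 control replicate 1 or 2 or ZNF263 replicate 1, or without any 1 of the H1975 libraries. The one in HCC827 also missed it without a filter on low values (0.0529), with quantile normalization (a change of -0.019, 0.845) and on 4 libraries alone (0.301), that in PC9 on 4 libraries alone (0.0981), and that in H1975 with median-of-ratios scaling (0.0539) and less its neighbours (0.0754). Of the exonic bases of LDHB, 33.4% overlap AC010197.2. LDHA made up 83.3% and 83.5% of the summed LDHA and LDHB level in the H1975 ZNF263 libraries and 76.4% (76.38 and 76.35) in control. In HCC827 it was 43.8% and 47.2% with ZNF263 and 50.5% and 50.9% in control, and in PC9 61.2% and 60.1% with ZNF263 and 57.8% and 58.4% in control.

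The lactate exporter SLC16A3 (chromosome 17, 82228397 to 82261129, plus strand) rose in PC9, to 64.5 and 63.1 FPKM with ZNF263, against 34.7 and 35.2 FPKM in control. In HCC827 it was lower, at 41.3 and 41.7 FPKM with ZNF263, against 60.03 and 49.3 FPKM in control. The log2 changes were 0.85 ± 0.078 in PC9 (adjusted p = 1.79e-05), -0.38 ± 0.078 in HCC827 (0.00481; -0.25 without HCC827 control replicate 1) and 0.004 in H1975. The PC9 rise passed under each alternative that was run for it, whereas the HCC827 fall did not on 4 libraries alone (0.0831). SLC16A1, the transporter that also imports lactate, fell to 20.1 and 19.996 FPKM in HCC827, against 28.9 and 32.4 FPKM in control (-0.59 ± 0.058, 4.21e-05). It stood at -0.20 in PC9 (0.0437) and 0.17 in H1975 (0.0212). Neither of those calls held less the neighbouring genes (0.0875 and 0.125). That in PC9 did not pass without any 1 of the PC9 libraries, and that in H1975 did not pass without control replicate 1 or either ZNF263 library. The PC9 call was also lost without a filter on low values, with quantile normalization, with a replicate block and on the 4 PC9 libraries alone.

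The pyruvate dehydrogenase kinases keep pyruvate out of the mitochondrion, and the pair measured here was called in opposite directions in HCC827. PDK1, a HIF target, was 3.99 and 4.84 FPKM in the HCC827 ZNF263 libraries, against 6.63 and 7.98 FPKM in control (-0.62 ± 0.093, adjusted p = 0.000781), and stood at -0.033 in PC9 and -0.066 in H1975. PDK3 rose in H1975 to 4.31 and 4.25 FPKM, against 2.13 and 2.12 FPKM in control (0.76 ± 0.069, 7.01e-07). It also rose in HCC827 to 3.32 and 3.37 FPKM, against 2.19 and 2.47 FPKM in control (0.38, 0.0022; 0.0623 on the 4 HCC827 libraries alone), and was at 0.12 in PC9.

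**Figure D3:**
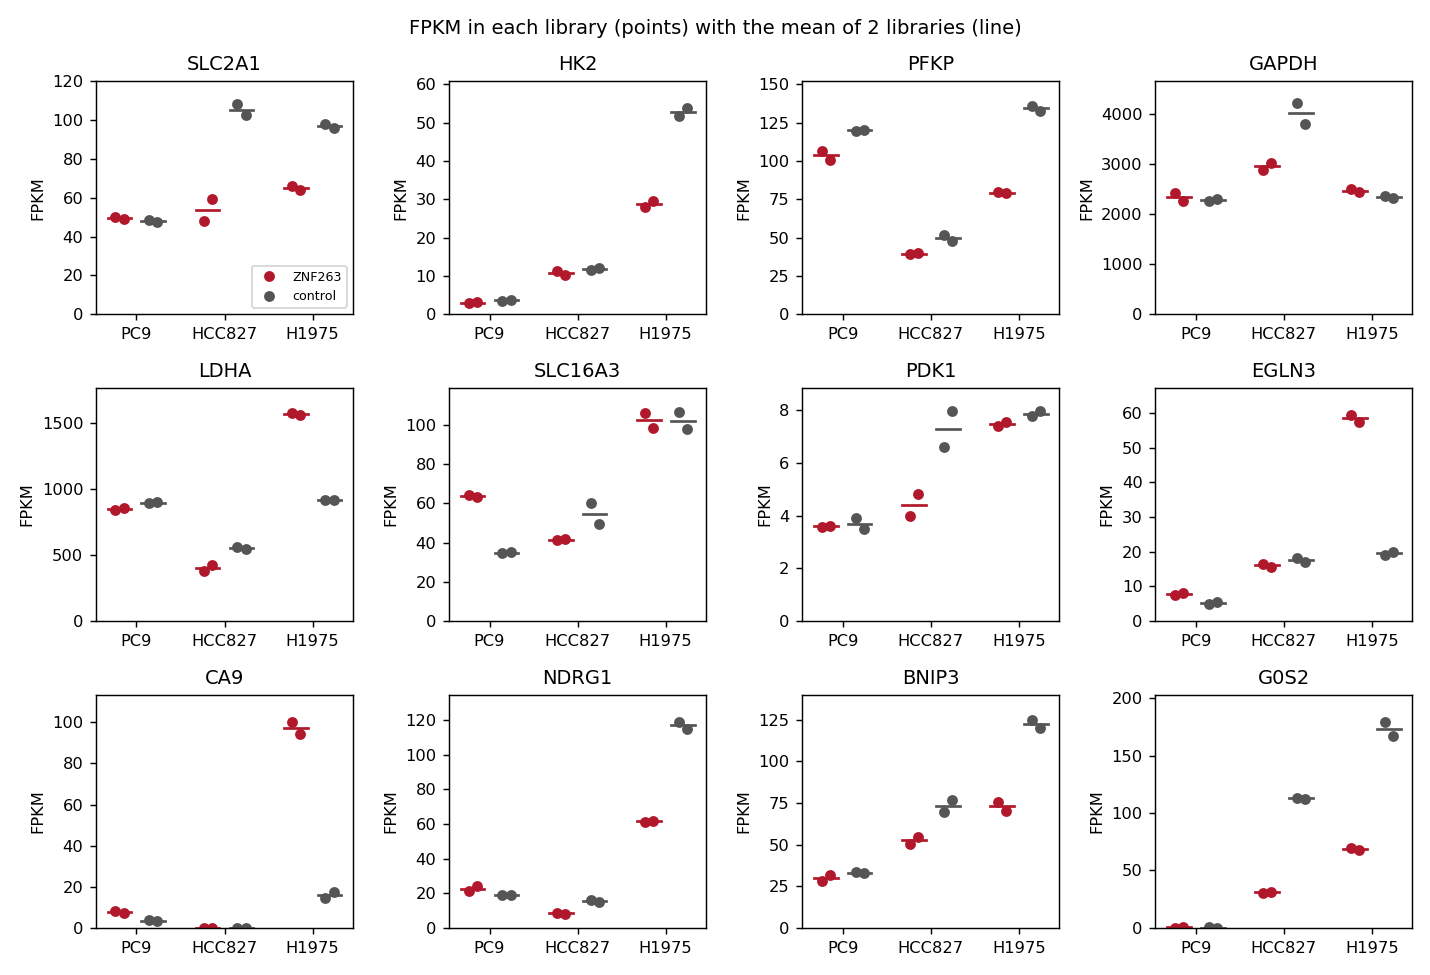
FPKM in each library (points) and the mean of 2 libraries (line) for 12 of the genes, with ZNF263 left of control in each line. SLC2A1 and NDRG1 are lower with ZNF263 in HCC827 and H1975, LDHA is lower in HCC827 and higher in H1975, CA9 and EGLN3 are higher in PC9 and H1975, and SLC16A3 is higher in PC9.

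Summed over the 25 genes, glycolysis took up less of the HCC827 transcriptome with ZNF263. Its share of the total FPKM was 1.66% and 1.72% in the HCC827 ZNF263 libraries and 2.21% and 2.085% in control. In H1975 it was 2.11% and 2.09% with ZNF263 and 1.99% and 1.98% in control, and in PC9 2.41% and 2.35% with ZNF263 and 2.43% and 2.44% in control. The ranges did not overlap in any line, which 2 libraries per group can also give without a difference, and the gap was widest in HCC827. These sums are led by a few abundant transcripts, GAPDH, LDHA, ENO1 and PKM among them, and are given as a description.

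Both HIF alpha subunits were called higher in H1975, and EPAS1 was called in each line. HIF1A (chromosome 14, 61695513 to 61748259, plus strand) was 242 and 248 FPKM with ZNF263 and 207 and 219.7 FPKM in control in H1975, a change of 0.20 ± 0.076 (adjusted p = 0.0364; 0.50 less its neighbours). That call did not pass without any 1 of the 4 H1975 libraries (0.0517 to 0.192). HIF1A stood at 0.084 in PC9 and 0.12 in HCC827. EPAS1 (chromosome 2, 46293667 to 46386703, plus strand) was lower in PC9 and higher in H1975. It fell in PC9 to 43.6 and 44.5 FPKM, against 52.6 and 52.8 FPKM in control (-0.25 ± 0.048, 0.0045). It rose in H1975 to 88.1 and 88.0 FPKM, against 70.8 and 69.2 FPKM in control (0.33, 5.95e-05; 0.63 less its neighbours). In HCC827 its change of 0.15 (0.0453) did not pass on 4 libraries (0.268), less its neighbours (0.367), with median-of-ratios scaling (0.268) or without HCC827 control replicate 1 or ZNF263 replicate 1 (0.0936 and 0.282). HIF activity is set mainly by protein stability, which these data do not measure.

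The prolyl hydroxylases EGLN3 and EGLN1 were called in opposite directions in H1975 alone, and EGLN1 did not pass there less its neighbours. EGLN3, itself a HIF target (chromosome 14, 33924231 to 34462774, minus strand), stood at 59.5 and 57.4 FPKM in the H1975 ZNF263 libraries, against 19.2 and 20.02 FPKM in control. In PC9 it was 7.63 and 7.98 FPKM with ZNF263, against 5.07 and 5.53 FPKM in control. It rose by 1.53 ± 0.062 in H1975 (adjusted p = 4.07e-10) and by 0.48 ± 0.062 in PC9 (0.000277; 0.0542 on the 4 PC9 libraries alone), and stood at -0.13 in HCC827 (0.184). EGLN1, the main oxygen sensor, was lower in HCC827, at 9.63 and 10.6 FPKM with ZNF263 and 12.995 and 15.0 FPKM in control (-0.43, 0.00138, and 0.0631 on 4 libraries). In H1975 EGLN1 was at 32.0 and 33.3 FPKM with ZNF263 and 42.9 and 39.8 FPKM in control (-0.33, 0.00123), or -0.062 less its neighbours (0.481).

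Of the carbonic anhydrases, which handle acid at the cell surface, CA9 showed the highest rise of all 42 genes. CA9 (chromosome 9, 35673856 to 35681159, plus strand) stood at 100.04 and 94.3 FPKM in the H1975 ZNF263 libraries, against 14.5 and 17.3 FPKM in control. In PC9 it was 8.37 and 7.13 FPKM with ZNF263, against 3.82 and 3.38 FPKM in control. The mean level was 6.10-fold that of control in H1975 and 2.15-fold in PC9. The log2 changes were 2.54 ± 0.095 in H1975 (adjusted p = 1.92e-10) and 0.93 ± 0.095 in PC9 (3.69e-05), and both passed under each alternative that was run for them. In HCC827, CA9 was covered by 0 to 1 read per library and no change could be detected at this depth. Of its exonic bases 38.5% overlap ARHGEF39 on the other strand, whose level in H1975 was 3.73 and 3.40 FPKM with ZNF263 and 4.82 and 4.46 FPKM in control. CA12 fell in PC9 to 92.6 and 98.3 FPKM, against 112 and 121 FPKM in control (-0.29 ± 0.063, 0.0113). That call missed the threshold without PC9 control replicate 2 or ZNF263 replicate 1 (0.158 and 0.121), with a pseudocount of 0.1 (0.157) or on 4 libraries alone (0.0931). CA12 was at -0.001 in H1975 and on 1 to 6 reads in HCC827.

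The secreted factors moved in opposite directions in HCC827 and H1975. VEGFA, the main angiogenic growth factor (chromosome 6, 43770184 to 43786487, plus strand), was 47.8 and 47.7 FPKM in the HCC827 ZNF263 libraries, against 58.7 and 64.7 FPKM in control (-0.36 ± 0.064, adjusted p = 0.00198). In H1975 it was 70.6 and 67.2 FPKM with ZNF263, against 54.9 and 55.5 FPKM in control (0.31, 0.000767), or 0.069 less its neighbours (0.378). ADM, the vasodilator peptide adrenomedullin, was 1.75 and 2.12 FPKM with ZNF263 in HCC827, against 3.53 and 3.50 FPKM in control (-0.62 ± 0.080, 0.000251), on 46 to 95 reads. In H1975 ADM was 52.6 and 52.8 FPKM with ZNF263, against 35.6 and 34.96 FPKM in control (0.57, 4.08e-05), or 0.19 less its neighbours (0.0585). Neither gene passed in PC9, where the changes were 0.027 and 0.031.

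NDRG1, BNIP3 and G0S2 were lower in HCC827 and H1975, also under each alternative that was run for them. NDRG1, a stress-response and growth-arrest gene on chromosome 8, was 8.68 and 8.13 FPKM in the HCC827 ZNF263 libraries, against 16.2 and 14.9 FPKM in control. In H1975 it was 61.3 and 62.0 FPKM with ZNF263, against 119 and 115 FPKM in control. NDRG1 fell by 0.81 ± 0.065 in HCC827 (adjusted p = 7.63e-06) and fell by 0.91 ± 0.065 in H1975 (7.68e-08). It turned the other way in PC9, at 21.3 and 24.0 FPKM with ZNF263 and 19.3 and 18.8 FPKM in control (0.24, 0.0354). That call missed the threshold without PC9 control replicate 1, control replicate 2 or ZNF263 replicate 2 (0.116 to 0.254, with a change of 0.15 without the last), less the neighbours (0.065) or on 4 libraries alone (0.151).

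BNIP3, a mitochondrial protein that triggers mitophagy (chromosome 10, 131966455 to 131982013, minus strand), was 50.3 and 54.9 FPKM with ZNF263 in HCC827, against 69.8 and 76.8 FPKM in control (-0.47 ± 0.070, adjusted p = 0.000721). In H1975 it was 75.8 and 70.4 FPKM with ZNF263, against 125 and 119.8 FPKM in control (-0.74 ± 0.070, 1.17e-06). Its relative BNIP3L was called in no line, with changes of 0.23 (0.0718) in PC9, 0.13 in H1975 and 0.051 in HCC827. The ankyrin repeat gene ANKRD37 was also called in none, rested on 6 to 19 reads in PC9 and HCC827, and shares 35.2% of its exonic bases with UFSP2 on the other strand.

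G0S2, an inhibitor of the main fat lipase (chromosome 1, 209675420 to 209676388, plus strand), had the lowest change of the 42 genes in each of these lines. It was 29.99 and 31.6 FPKM in the HCC827 ZNF263 libraries, against 113 and 112 FPKM in control. In H1975 it was 69.4 and 67.8 FPKM with ZNF263, against 179 and 167 FPKM in control. G0S2 fell by 1.84 ± 0.13 in HCC827 (adjusted p = 4.47e-06) and fell by 1.32 ± 0.13 in H1975 (1.23e-06; -0.87 less its neighbours). In PC9 it rested on 2 to 11 reads, and no change could be detected at this depth. HILPDA, another lipase inhibitor and HIF target, was called in no line (0.001 in PC9, -0.056 in HCC827 and 0.19 in H1975).

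Among the HIF-induced dioxygenases, P4HA1, a collagen prolyl hydroxylase (chromosome 10, 73007217 to 73096974, minus strand), was lower in each line. It stood at 40.9 and 40.5 FPKM in the H1975 ZNF263 libraries, against 62.7 and 61.7 FPKM in control (-0.60 ± 0.064, adjusted p = 3.34e-06). Its changes of -0.33 in HCC827 (0.00396) and -0.22 in PC9 (0.0485) did not pass on the 4 libraries of the line alone (0.106 and 0.0984). In PC9 the call was lost with a pseudocount of 0.1, without a filter on low values, with quantile normalization and less its neighbours. The PC9 value also did not pass without any 1 of the PC9 libraries (0.0936 to 0.283), and the HCC827 value did not without ZNF263 replicate 1 (0.0517). P4HA2, its paralog, was at 0.20 in H1975 (0.0316), which did not pass without any 1 of the H1975 libraries (0.0828 to 0.117). KDM3A, a histone demethylase, fell by 0.30 in H1975 (0.00243; -0.47 less its neighbours) and stood at -0.030 in PC9 and -0.006 in HCC827.

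The change with ZNF263 differed between the lines for most members. The limma F test of line by genotype called 33 of the 42 genes (78.6%), against 60.3% of all genes tested, 21 of the 25 glycolysis genes and 12 of the 17 HIF genes. Between HCC827 and PC9, 19 members (45.2%) differed, against 9.6% of all genes, and 17 of these changes were the lower ones in HCC827. The gap, HCC827 minus PC9, was -1.02 ± 0.11 for SLC2A1 (adjusted p = 0.00011), -1.23 ± 0.11 for SLC16A3 (3.67e-05) and -0.48 ± 0.088 for GAPDH (0.00477). Between H1975 and PC9, 27 members (64.3%) differed, against 54.1% of all genes, and between H1975 and HCC827 26 (61.9%), against 53.7%. LDHA led the glycolysis genes between H1975 and HCC827, with a gap (H1975 minus HCC827) of 1.23 ± 0.081 (9.501e-08). There were 6 members (14.3%, against 28.1% of all genes) with no call in any line, namely SLC2A3, HK1, ENO1, BNIP3L, ANKRD37 and HILPDA.

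Of the 17 members that fell in H1975, 12 also fell in HCC827, which is 70.6% of the H1975 list and 52.2% of the 23 members that fell in HCC827. Over all genes, 376 were lower in both, 9.59% of those lower in H1975 and 47.7% of those lower in HCC827. The 70.6% is also to be read against the 54.8% of all members that fell in HCC827, where 6.44% of all genes did. These 12 were SLC2A1, PFKM, PFKP, ALDOA, ALDOC, PGAM1, PKM, EGLN1, NDRG1, BNIP3, P4HA1 and G0S2. In contrast, 5 members fell in HCC827 and rose in H1975, namely LDHA, LDHB, SLC16A1, VEGFA and ADM. That is 21.7% of the members that fell in HCC827, against 29.8% over all genes, and the H1975 calls of LDHB, SLC16A1, VEGFA and ADM did not pass less their neighbours. CA9 and EGLN3 rose in both H1975 and PC9, which is 2 of the 4 members higher in PC9 (50%), against 40.0% over all genes. Across the 42 genes, which share libraries and are not independent, Pearson's r of the changes was 0.42 between H1975 and HCC827, 0.52 between H1975 and PC9 and 0.007 between HCC827 and PC9. By rank the first pair was the higher one, with Spearman's rho of 0.34, 0.26 and 0.068 in the same order. Within the 25 glycolysis genes Pearson's r was 0.19, 0.21 and 0.092.

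**Figure D4:**
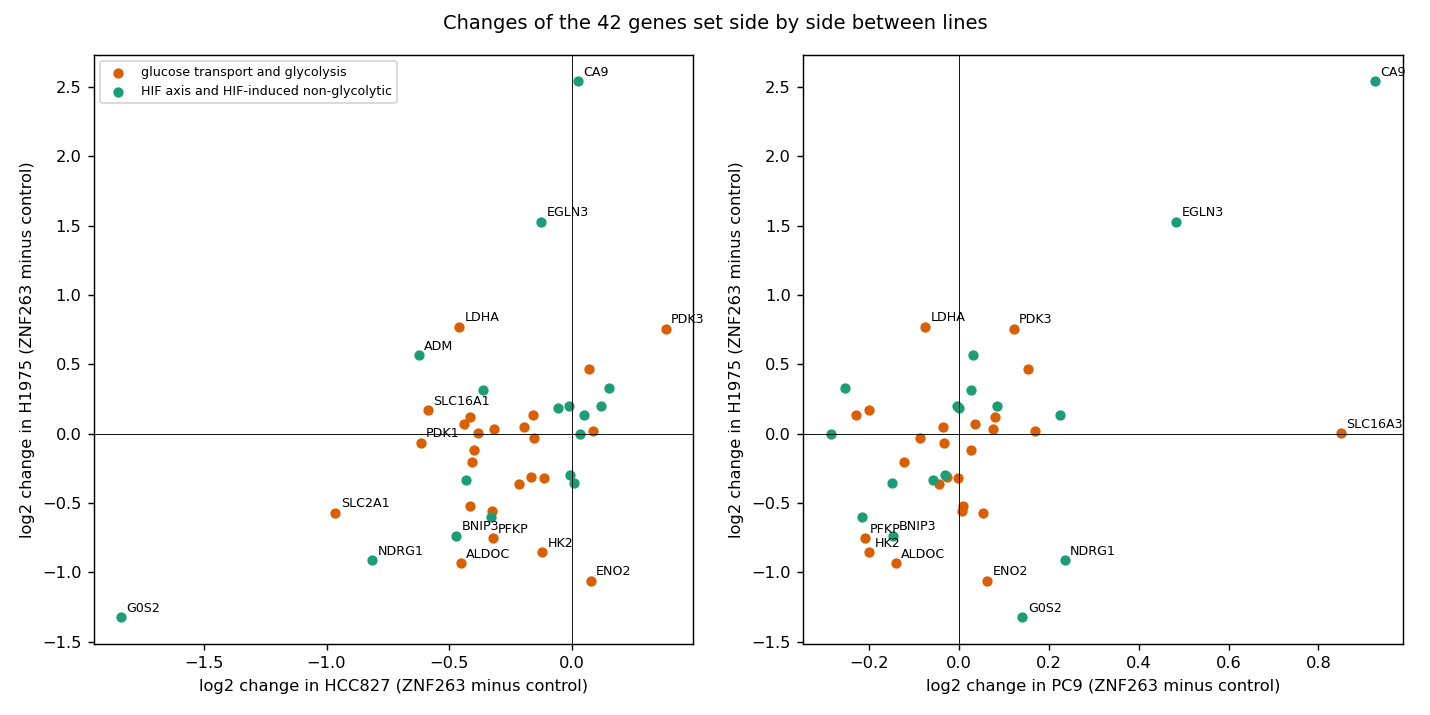
Log2 change in H1975 (y axis) against that in HCC827 (left, x axis) and in PC9 (right, x axis) for the 42 genes, all ZNF263 minus control, coloured by group of genes. G0S2, NDRG1 and SLC2A1 lie at the lower left between H1975 and HCC827, LDHA and ADM at the upper left, and CA9 and EGLN3 at the upper right between H1975 and PC9.

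Further genes of the same pathways were read from lists written from textbook knowledge. The 13 measured HIF regulators other than the members gave 1 higher call in PC9, 1 higher and 1 lower in HCC827, and 7 higher and 3 lower in H1975. The H1975 counts are 53.85% and 23.08% of the 13, against 32.1% each over all genes. In HCC827 they are 7.69% each, against 13% higher and 6.44% lower, and in PC9 7.69% higher, against 7.21%. ARNT, the shared partner of the alpha subunits, averaged 12.5 FPKM with ZNF263 and 7.75 FPKM in control in H1975 (0.63), and CITED2, which competes with HIF for its coactivator, averaged 35.4 FPKM with ZNF263 and 16.7 FPKM in control (1.04). CITED2 fell in HCC827 by 0.54. Of 33 other HIF targets, 4 rose and 6 fell in PC9, 3 rose and 7 fell in HCC827, and 15 rose and 13 fell in H1975. The H1975 counts are 45.5% and 39.4% of the 33, against 32.1% each over all genes. In PC9 they are 12.1% and 18.2%, against 7.21% and 4.12%. In HCC827 they are 9.09% and 21.2%, against 13% and 6.44%. The median changes of the 33 were -0.049 in PC9, -0.044 in HCC827 and 0.069 in H1975.

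The genes with the highest absolute changes were as follows, with STC2 among them in both PC9 and HCC827. In PC9, PPP1R3C, a glycogen-targeting subunit, averaged 13.3 ± 0.77 FPKM with ZNF263 and 6.29 ± 0.41 FPKM in control (SD, n = 2 libraries; log2 change 0.97). STC2, a secreted glycoprotein, was at 5.93 and 10.7 FPKM and the lipase inhibitor ANGPTL4 at 14.2 and 23.7 FPKM (ZNF263 and control means), as each fell. In HCC827, STC2 fell by 1.10, the serine synthesis enzyme PHGDH fell by 0.91, and FBP1, a gluconeogenic enzyme that opposes phosphofructokinase, rose by 0.97 to 1.83 FPKM, against 0.44 FPKM in control. In H1975, the heme oxygenase HMOX1 averaged 24.1 FPKM with ZNF263 and 140.5 FPKM in control (-2.50), and the collagen crosslinker LOX 134 and 24.0 FPKM (2.44).

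Lists of the routes that leave or oppose glycolysis were counted in each line, and the difference between lines was not tested for them. The counts are to be read against the shares of all genes called higher and lower. These were 32.1% and 32.1% in H1975, 13% and 6.44% in HCC827, and 7.21% and 4.12% in PC9. Mitochondrial pyruvate entry and gluconeogenesis rose in H1975 in 10 of 10 measured genes (32.1% of all genes rose there), with a median of 0.53, against 1 higher and 1 lower in HCC827 and 1 lower in PC9. PC, pyruvate carboxylase, averaged 35.6 FPKM with ZNF263 and 15.4 FPKM in control there (1.16), and PCK2 16.5 and 5.69 FPKM (1.39). Of 5 genes of glucose sensing by MondoA, 4 fell in H1975 (median -0.52), ARRDC4 to 3.52 FPKM against 7.99 FPKM in control, and limma called 0 in the other lines (2 higher in PC9 and 0 in HCC827 at an unadjusted p under 0.05). The serine branch fell in HCC827 in 4 of 6 genes (median -0.31), and gave 3 higher and 3 lower in H1975 and 1 and 2 in PC9. The pentose phosphate pathway gave 2 higher and 3 lower of 7 in H1975, 1 lower in PC9 and 0 in HCC827 (limma, also 0 at an unadjusted p under 0.05). Among 12 measured MYC and energy regulators, MYC, a transcription factor that also drives glycolysis, fell in HCC827 to 64.8 FPKM, against 92.2 FPKM in control (-0.51), and in PC9 to 51.4 FPKM, against 61.4 FPKM in control (-0.25). It rose in H1975 to 126.5 FPKM, against 85.3 FPKM in control (0.56). The remaining 22 glycolysis isoforms and regulators gave 9 higher and 10 lower calls in H1975, 4 higher and 1 lower in HCC827, and 4 higher and 2 lower in PC9. Those are 40.91% and 45.45% of the 22 in H1975, 18.18% and 4.545% in HCC827, and 18.18% and 9.091% in PC9.

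**Figure D5:**
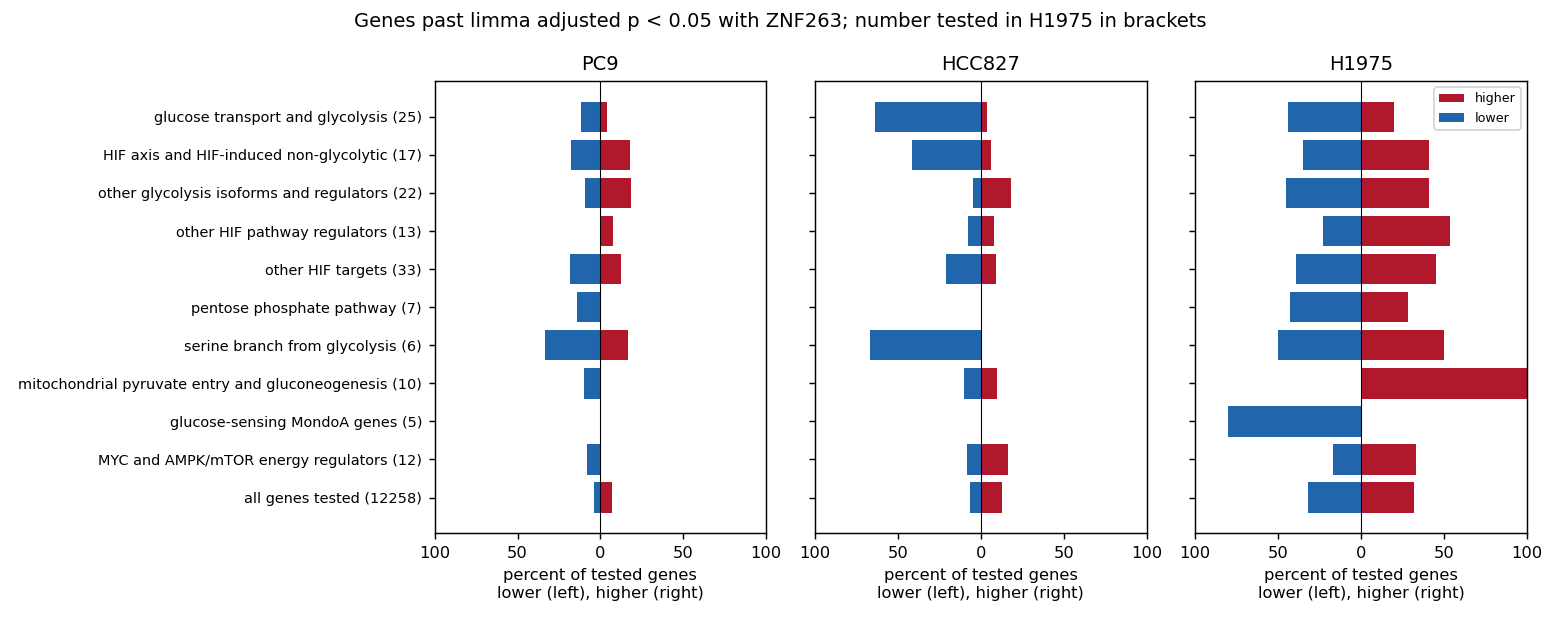
Percent of the tested genes of each list called lower (left, blue) or higher (right, red) with ZNF263 in each line, with all genes tested in the lowest bar. The glycolysis bar reaches 64% to the lower side in HCC827, against 6.44% of all genes, and in H1975 the pyruvate entry bar reaches 100% to the higher side, against 32.1%.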

How the data were processed

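RNA-seq was made from PC9, HCC827 and H1975 cells, 12 libraries in 6 groups of 2. Per the labels' protocols, cells were grown in DMEM and exposed stepwise to osimertinib, RNA was isolated in TRIZOL, and a SMARTER mRNA-seq kit was used for the libraries. The authors deposited FPKM values, 1 column per library, on GRCh38.p13 per the submitters' processing notes. The sources used here do not name the aligner, counter, annotation or strand setting. Of 20030 entries, 27 carry a calendar date in place of a gene name and were left out. PC9 has values for all genes, whereas 3383 named genes have none in HCC827 and 3339 none in H1975, so all comparisons of ZNF263 with control stay inside 1 line. The labels do not say that the libraries of a group came from separate cultures, so p-values measure only the spread between libraries, which may be technical.

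Genes reaching 1 FPKM in at least 2 of the 12 libraries were tested with limma 3.58.1 (R 4.3.3, trended prior variance) on log2(FPKM + 1), which understates changes of low genes. The model took 1 mean for each of the 6 groups, with the spread pooled over them. A line whose libraries vary more may therefore have an SE that is too small, which was not tested. Adjusted p-values are Benjamini-Hochberg over all genes, two-sided, called under 0.05. A call is stated against the share of all genes called. Alternatives were another pseudocount, other filters, median-of-ratios and quantile scaling, each library left out, a replicate block, each line alone, and the change less the median of 20 genes on each side. The fit was tested on simulated data. The 42 members, all of which were to be named, and the other pathway and marker lists, of which the 3 called genes with the largest absolute change per line were to be named, were chosen with earlier results of these data known. Lists were glycolysis isoforms, HIF regulators, HIF targets, pentose phosphate, serine branch, pyruvate entry, MondoA genes, energy regulators, and lung epithelial, fibroblast, immune, endothelial and hemoglobin genes. Further genes of these lists that the text names were chosen after their values were seen, and 1 gene that the rule names is not reported here.

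Depth was read from the FPKM steps: reads that made all values of a gene whole (within 0.002 of a read) covered 99.41% (PC9), 99.53% (HCC827) and 98.52% (H1975) of genes, against 0.405% to 0.665% with values shuffled. The smallest read numbers that fit were taken, so the reads of a gene may be a whole multiple of those given. FPKM carry a factor for gene length per gene, so no count test was run. Positions are from GENCODE 29 on GRCh38, and promoters from RefSeq on GRCh38.p14.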

Additional observations from a re-analysis of the deposited data

Results flagged for a closer look

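The F test of limma found that the change with ZNF263 differed between the lines, at an adjusted p under 0.05, for 33 of the 42 genes, against 60.3% of all genes. The values below are the highest minus the lowest log2 change over the 3 lines. The change was highest in H1975 and lowest in HCC827 for CA9 (2.515), EGLN3 (1.66), LDHA (1.23), ADM (1.19), SLC16A1 (0.76), VEGFA (0.68), PGK1 (0.535), GAPDH (0.51) and PFKL (0.39). It was highest in PC9 and lowest in HCC827 for G0S2 (1.98), SLC16A3 (1.23), SLC2A1 (1.02), PDK1 (0.58), TPI1 (0.43), GPI (0.39), EGLN1 (0.37) and PKM (0.29). PC9 was highest and H1975 lowest for NDRG1 (1.15), ALDOC (0.79), BNIP3 (0.59), ALDOA (0.57), PFKP (0.54), PGAM1 (0.53), P4HA1 (0.385), PFKM (0.32) and PFKFB3 (0.32). HCC827 was highest and H1975 lowest for ENO2 (1.14), HK2 (0.73) and KDM3A (0.29). PC9 was lowest, and H1975 highest, for PDK3 (0.64), EPAS1 (0.58) and LDHB (0.36), and HCC827 highest for CA12 (0.32). CA9 and CA12 in HCC827 and G0S2 in PC9 rested on 0 to 11 reads per library, so their differences involve a line in which the gene was near 0. The lines differ in the ZNF263 level that was reached, and in H1975 the lung epithelial and fibroblast markers shifted as well. The part of either in these differences was not tested.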

How the results depend on the processing

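Each alternative changed 1 choice at a time. Of 126 changes (42 genes in 3 lines), 123 kept their direction and side of the threshold with a pseudocount of 0.1, 123 with median-of-ratios scaling, 119 without a filter on low values, 118 with quantile normalization and 107 less the median change of 20 genes on each side. Direction turned in H1975 for GAPDH with quantile normalization (-0.13, adjusted p = 0.00396, against 0.071) and, less the neighbours, for PGK1 (-0.22, 0.00356, against 0.12) and PKM (0.000334, 0.997, against -0.20). The cause was not tested. Less the neighbours, the H1975 calls of PFKM, LDHB, SLC16A1, EGLN1, VEGFA and ADM also fell away. Without a filter on low values, the calls lost were SLC16A1, NDRG1 and P4HA1 in PC9, ALDOA, ALDOC and LDHB in HCC827, and HIF1A in H1975. The number of members higher in HCC827 moved from 2 to 1 with a minimum mean of 5 FPKM, where fewer genes were tested, with median-of-ratios scaling, with the replicate block and less the neighbours. A fit on the 4 libraries of a line alone takes the spread from that line, and from fewer libraries. Members higher and lower then numbered 0 and 11 in HCC827, and 2 and 1 in PC9. The shares of all genes called were 5.17% in HCC827 and 3.22% in PC9, against 19.5% and 11.3% in the main fit. In H1975 the share was 63.7%, against 64.2%, and no count of members moved by over 1.5 times. The part of fewer libraries or of a wider spread within HCC827 in these losses was not tested. The 11 genes that fell in HCC827 under every alternative run were SLC2A1, PGK1, PGAM1, LDHA, SLC16A1, PDK1, VEGFA, ADM, NDRG1, BNIP3 and G0S2. In PC9 SLC16A3, CA9 and EPAS1 kept their calls in every alternative, and in H1975 20 of 29 calls did. Leaving out 1 library gave PC9 3 to 7 members higher and 1 to 7 lower, HCC827 1 to 3 and 19 to 25, H1975 8 to 14 and 16 to 19, and 28 to 37 members whose change differed between lines. Members lower in PC9 numbered 2 without control replicate 1, 1 without control replicate 2, 2 without ZNF263 replicate 1 and 3 without ZNF263 replicate 2. Members higher in PC9 numbered 7 without either HCC827 control library, and members higher in HCC827 numbered 1 without any PC9 or H1975 library or HCC827 ZNF263 replicate 1. Where an arm was left with 1 library, that library was assumed to vary like the other groups. Without ALDOA, an alternative chosen after seeing the data, no count moved by over 1.5 times.

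The replicate numbers were not treated as pairs, since the deviations of same-numbered libraries correlated at 0.037, 0.089 and -0.043 in PC9, HCC827 and H1975. With the replicate number as a block, PC9 had 4 members higher and 5 lower, HCC827 1 and 22, and H1975 11 and 17, with 32 members in the F test. Of the 126 changes, 5 lost a call with the block (SLC16A1 in PC9, LDHB and EPAS1 in HCC827, LDHB and P4HA2 in H1975) and HILPDA in H1975 gained one.

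With 2 libraries per group, the precision is limited by their number. Between libraries of a group, low-count genes varied 1.57 to 2.22 times as much as sampling gives in PC9 and HCC827 and 3.54 to 4.06 times in H1975. Changes of CA9 and CA12 in HCC827, G0S2 in PC9 and ANKRD37 in PC9 and HCC827 could not be resolved at their read numbers. The lines differ in which genes have values, so levels may not be comparable between lines. Read numbers were recovered from the FPKM steps, and cover counting error only.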

Other observations

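Some genes outside the 42 moved the same way in each line, and were chosen after their values were seen. The share of all genes that did so was not counted. PDK2 and PDK4, relatives of the pyruvate dehydrogenase kinases among the members, were higher with ZNF263 throughout. PDK4 averaged 62.4 FPKM with ZNF263 and 38.8 FPKM in control in PC9 (log2 change 0.67 ± 0.12, limma adjusted p = 0.00381), 5.22 and 3.43 FPKM in HCC827 (0.48, 0.0174), and 6.81 and 2.84 FPKM in H1975 (1.04, 9.27e-06). PDK2 changed by 0.53, 0.35 and 0.65 in the same order (adjusted p = 0.000675, 0.00749 and 7.74e-06). The HIF targets STC2 and ANGPTL4 were lower in each line. STC2 changed by -0.75 in PC9, -1.10 in HCC827 and -0.71 in H1975, and ANGPTL4 by -0.71 (0.0379), -0.79 (0.0151) and -1.09. Less the median of their neighbours, these 4 genes kept their direction, and no other alternative was run for them.

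In H1975, the glucose transporter SLC2A6 averaged 25.2 FPKM with ZNF263 and 9.86 FPKM in control (1.27, limma adjusted p = 1.91e-08), and PFKFB2, a further regulator of phosphofructokinase, 2.21 and 6.99 FPKM (-1.32, 1.44e-08). HKDC1, a hexokinase relative, rose in PC9 by 0.57 and fell in HCC827 by 0.47.

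The immune markers, of which 7 had values in H1975 and 8 in the other lines, summed to 79.25 to 84.94 FPKM with ZNF263 and 85.01 to 85.53 in control in H1975, 30.9 to 36.39 and 41.83 to 42.56 in HCC827, and 3.612 to 3.836 and 3.273 to 3.568 in PC9. The 6 endothelial markers summed to no more than 0.8405 FPKM and the hemoglobin genes to no more than 0.1008 FPKM in any library.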
